A study of Bos taurus with 14 samples.

Results

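The genes described here build the extracellular matrix or attach cells to it and to each other: collagens, laminins, fibronectin and the small proteoglycans, the matrix metalloproteinases (MMPs) with their tissue inhibitors (TIMPs), integrins and cadherins. The rule is by gene symbol alone, with 1 probe per symbol, and uses no measured value, though the group was proposed with earlier results of these data known. The rule found 60 of the 6314 distinct symbols on the array. Of these, 56 are matrix or adhesion genes. The other 4 match the rule by name without being collagen or integrin chains. COL4A3BP is a ceramide transfer protein, ITGB1BP1 an adaptor of the integrin beta-1 tail, and ITGB3BP a centromere protein. ITGB4BP is an older symbol of EIF6, a factor in ribosome assembly. MMP9 was left out by the rule. Versican and the laminins other than LAMB3 are on the array under names that the rule does not reach. They are given further on as probes chosen after their values were seen.

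RNA was measured on 14 microarrays of Bos taurus cells. Bovine endometrial stromal (BES) cells, described in the labels as an in vitro study, were kept for 2 h either with phosphate-buffered saline (PBS, 3 samples) or with interferon tau (IFNT, 3 samples), a type I interferon made by the conceptus of ruminants. Bovine granulocytes, labelled in vivo and in vitro, were incubated for the same time with PBS (4 samples) or IFNT (4 samples). The labels give 1 mg/mL as the IFNT dose in both cell types, a unit that nothing else in the sources used here bears out and that may be a typing error. They name no breed, age or animal, and do not say whether replicates were separate animals or cultures, so p-values measure only the spread between these samples. All BES arrays were on slide 1 and all granulocyte arrays on slide 2, and the effect of the slide cannot be told apart from that of the cell type. On slide 2 every PBS sample lay in array row 1 and every IFNT sample in row 2, so row and treatment cannot be told apart in granulocytes. On slide 1, row 1 held PBS samples 1 and 2 only, and the remaining 4 arrays lay in row 2.

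A level here is the log2 processed signal of a probe minus the 75th percentile of its array, so 0 is the 75th percentile and a step of 1 is a doubling. Levels are compared within a probe, never between probes, since probes differ in how well they hybridise. The summed levels of marker lists given below add signals across probes, so the brightest probes carry them. Well above background is the scanner software's own call for a spot. It was made for 71.6% to 76.1% of probes on BES arrays and for 66.4% to 70.9% on granulocyte arrays. The labels of the cells were checked against marker lists. In BES, 8 of 9 stromal markers were measured, but so were 7 of 13 granulocyte markers. The other 6, CXCR1 and MPO among them, were never well above background there. Of the stromal markers, 6 were measured in granulocytes as well. Under PBS, THY1 was higher in granulocytes (−1.88 against −4.39 in BES) and VIM was similar (4.67 against 4.53). S100A4, ACTA2, CALD1 and ENG were higher in BES. Granulocyte arrays measured all 13 granulocyte markers, but also CD3E of T cells (level 1.22 ± 0.01, SD, n = 4, under PBS), CD79A of B cells (0.53 ± 0.07) and CD14 of monocytes (1.41 ± 0.14). In BES, 5 of 6 epithelial markers were measured, among them the keratins KRT8 (7.19 ± 0.10, SD, n = 3) and KRT19 (5.95 ± 0.08). EPCAM, which also marks epithelium, was not well above background.

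As background, fibrillar collagens form the tensile fibres of the endometrial stroma, network collagens such as type IV and the laminins form basement membranes, and decorin, lumican and biglycan coat and space the fibres. MMPs cut these proteins and TIMPs block MMPs. Integrins are pairs of an alpha and a beta chain that hold a cell to matrix or, in leukocytes, to the vessel wall. Cadherins join neighbouring cells through catenins. In ruminants the conceptus attaches to the endometrium without deep invasion, and integrins and their ligands at the uterine surface are studied as part of that attachment.

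The probes are 60 bases long and each reads a short stretch of 1 transcript. Of the 13 collagen chains among the members, 4 have probes that carry the triple-helical repeat from end to end. In the triple helix, glycine recurs at a fixed interval of residues, and since glycine codons begin with GG, the letters GG return every 9 bases. Where the other collagen probes lie in their chains was not determined. These probes are shown because 3 of the 4 belong to chains called as changed by IFNT. Capitals mark each GG in that spacing.

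COL2A1: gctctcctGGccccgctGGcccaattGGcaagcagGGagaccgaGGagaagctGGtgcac

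COL11A1: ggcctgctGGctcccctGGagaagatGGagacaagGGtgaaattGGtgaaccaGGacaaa

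COL4A1: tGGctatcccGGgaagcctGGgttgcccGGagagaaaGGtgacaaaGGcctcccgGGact

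COL6A2: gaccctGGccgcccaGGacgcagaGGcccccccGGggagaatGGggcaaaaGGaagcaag

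Only 6 of the 15208 probes on the array (0.0395%) carry GG every 9 bases from end to end. The other 2 are named CB11, described in the file as cyanogen bromide, and CGN1, conglutinin, a lectin with a collagen-like stem. Between any pair of the 4 member probes the longest run of shared bases was 5 to 7.

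COL1A1, the alpha-1 chain of type I collagen, had the only rise among the collagens, and the array carries a further probe described as similar to pro alpha 1(I) collagen. Both are shown because they cover nearly the same stretch. Capitals mark the 15 bases they share.

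COL1A1: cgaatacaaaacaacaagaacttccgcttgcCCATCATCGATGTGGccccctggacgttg

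COL1A1, other probe: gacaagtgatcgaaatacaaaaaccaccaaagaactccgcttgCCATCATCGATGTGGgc

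MMP14 is the membrane-anchored metalloproteinase that activates MMP2, and CDH1 is E-cadherin of epithelial junctions. Their probes are shown because the results below turn on what each one reads, with no letters marked.

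MMP14: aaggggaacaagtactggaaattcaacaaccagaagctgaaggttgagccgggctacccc

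CDH1: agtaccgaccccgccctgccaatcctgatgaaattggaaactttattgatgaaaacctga

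The MMP14 probe shares no run longer than 7 bases with the other MMP14 probe on the array. The CDH1 probe shares no run longer than 8 bases with the probe of any other cadherin member.

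Of the 60 members, 26 were well above background on all 14 arrays, 15 only on BES arrays, 5 only on granulocyte arrays and 4 in both cell types but not on all arrays. The 10 members never well above background were COL4A3, COL4A4, COL9A1, MMP3, ITGB6, CDH5, CDH6, CDH10, CDH16 and CDH18. CDH5 is the cadherin of endothelium and COL9A1 a collagen of cartilage. BES arrays alone measured COL1A2, COL4A1, COL8A1, COL12A1, FN1, LUM, MMP7, MMP14, MMP16, ITGB3 and CDH13 on all 6 arrays, MMP13 on 4, CDH8 on 2, and MMP20 and ITGA2 on 1 each. Granulocyte arrays alone measured ITGA4, ITGAL and ITGAM on all 8 arrays, TIMP4 on 4 and COL11A2 on 2.

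**Figure D1:**
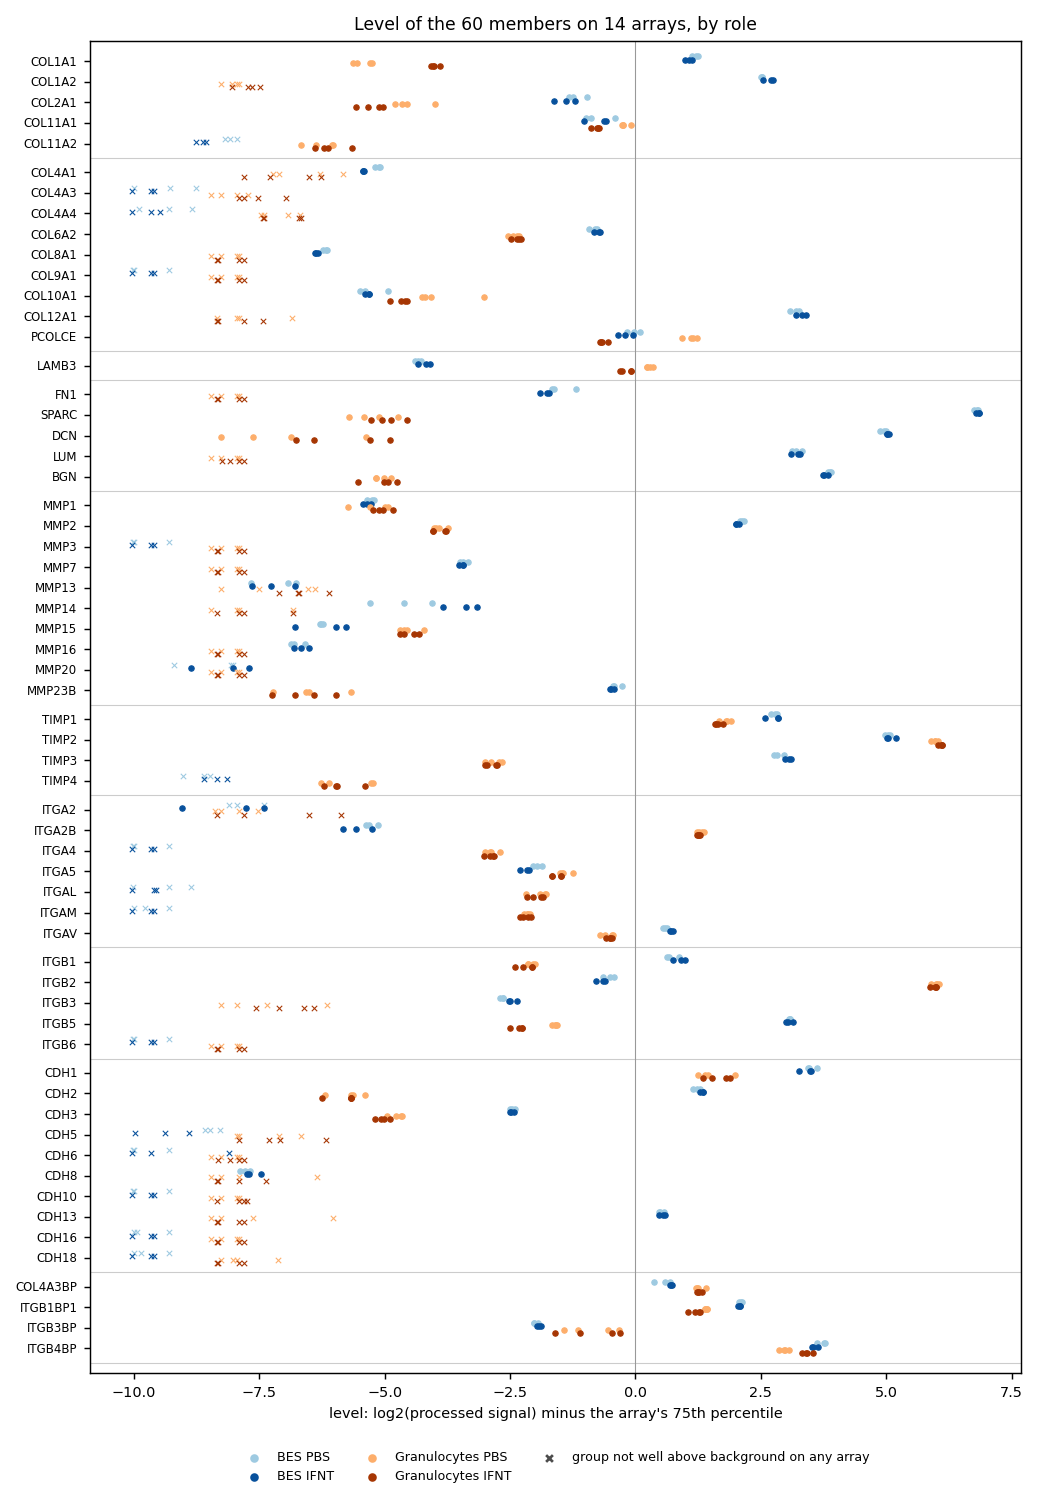
Level of each of the 60 members on each of the 14 arrays (log2 processed signal minus the 75th percentile of the array), grouped by role from fibrillar collagens at the top to the 4 genes matched by name only at the bottom. Each point is 1 array, crosses mark groups with no array well above background, and only points within a row can be compared: SPARC, DCN and LUM are far to the right in BES, and ITGAM, ITGAL, ITGA4 and ITGB2 in granulocytes.

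The cell types differed most in the proteins of the matrix itself. Under PBS, SPARC, a calcium-binding matrix protein that binds collagen, was at 6.80, 6.82 and 6.74 in the 3 BES samples and at −5.11, −5.41, −5.72 and −4.73 in the 4 granulocyte samples. It was well above background on 3 of the 4 granulocyte arrays and at least 4130-fold higher in BES (fitted log2 difference −12.03 ± 0.20, SE). Decorin (DCN), which binds type I collagen fibrils, was at 4.99, 4.88 and 4.95 in BES and well above background on 1 of 4 granulocyte PBS arrays, at least 1540-fold higher in BES. A bound of this kind sets the mean of the bright group against, on each dim array, the lowest signal called well above background or the probe's own if that is higher. No BES sample came near a granulocyte sample in either gene. Across the whole comparison, 44 of the 46 members tested passed an adjusted p of 0.05, beside 91.7% of all 12046 probes tested, so passing the test sets no member apart here. Of the 44, 15 were higher and 29 lower in granulocytes, beside 46.7% higher and 45.0% lower over all probes, and the median over the 46 was −1.54 beside 0.03 over all probes tested. The scaling moved that background: the median of all probes was 0.499 with normexp background correction and −0.233 with quantile normalization. The split of members was 20 higher and 25 lower with normexp.

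Type I collagen followed the same pattern. COL1A2, its alpha-2 chain, was at 2.53, 2.53 and 2.51 in BES under PBS and not well above background on any granulocyte array, at least 330-fold higher in BES. COL1A1 was measured on all arrays, at 1.21, 1.25 and 1.13 in BES and −5.29, −5.63, −5.25 and −5.56 in granulocytes (−6.63 ± 0.09). Type XII collagen, COL12A1, which sits on the surface of fibrils, was at least 521-fold higher in BES, and lumican (LUM) at least 535-fold. Biglycan (BGN) was at 3.87, 3.90 and 3.84 in BES and between −5.18 and −4.88 in granulocytes (−8.93 ± 0.14). In all these genes the lowest BES value was above the highest granulocyte value. Lack of overlap sets no gene apart here, since it held in 44 of the 46 members tested. Its share over all probes was not counted.

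Fibronectin, the matrix ligand of integrin alpha-5 beta-1, had a member probe FN1 at least 20.4-fold higher in BES. A further probe described as similar to fibronectin gave a difference of −7.99 ± 0.07, with all arrays measured. Other members lower in granulocytes were N-cadherin CDH2 (at least 112-fold, measured on 3 of 4 granulocyte PBS arrays), the membrane-tethered cadherin CDH13 (at least 81.4-fold), MMP23B (at least 40.7-fold, measured on 1 of 4), the gelatinase MMP2 (−6.04 ± 0.08), TIMP3, the inhibitor that stays bound to matrix (−5.68 ± 0.09), ITGB3 (at least 9.06-fold) and the small secreted MMP7, matrilysin (at least 5.35-fold). Integrin beta-5, ITGB5, was at 3.09, 3.09 and 3.07 in BES and between −1.67 and −1.57 in granulocytes (−4.69 ± 0.06). MMP2 has a further probe that differed by −1.32 ± 0.11 only, so the direction was shared and the size was not. Both probes of TIMP3 gave large differences, the further one −6.13 ± 0.07.

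Leukocyte integrins ran the other way. ITGAL and ITGAM are the alpha chains of LFA-1 and Mac-1, which pair with the beta-2 chain ITGB2 and hold granulocytes to ICAM-1. ITGAM was at −2.14, −2.22, −2.16 and −2.10 in the 4 granulocyte PBS samples and not well above background in BES, at least 39.9-fold higher in granulocytes. ITGAL was at least 47-fold and ITGA4, the alpha chain that binds VCAM-1 and fibronectin, at least 24.2-fold higher. ITGB2 lay between 5.89 and 6.06 in granulocytes and at −0.43, −0.50 and −0.65 in BES (6.52 ± 0.07). The chains did not overlap between the cell types.

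ITGA2B, the alpha chain of the platelet fibrinogen receptor, was at 1.36, 1.23, 1.26 and 1.33 in granulocytes and between −5.38 and −5.14 in BES (6.57 ± 0.11). Its partner ITGB3 was not well above background on any of the 8 granulocyte arrays. Of 7 platelet or erythroid markers listed, 3 had a named probe. The platelet genes of the list, PF4, PPBP, GP9 and GP1BA, had none. Haemoglobin HBB was not well above background in either cell type. ALAS2 (1.97 ± 0.10) and EPB42 (−3.91 ± 0.08) were measured in granulocytes under PBS. In BES under PBS, ALAS2 was measured on all 3 arrays (0.19 ± 0.07) and EPB42 on 2. The part of platelets in the ITGA2B level was not tested.

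Some matrix genes were higher in granulocytes as well. LAMB3, the beta-3 chain of laminin-332, was at 0.22, 0.35, 0.23 and 0.29 in granulocytes and at −4.39, −4.28 and −4.33 in BES (4.60 ± 0.07), a gap of 24.2-fold with no overlap. MMP15, a membrane-type metalloproteinase, differed by 1.75 ± 0.20. COL10A1, the collagen of hypertrophic cartilage, differed by 1.39 ± 0.25, the procollagen C-proteinase enhancer PCOLCE by 1.13 ± 0.09, and COL11A1, which nucleates type II collagen fibrils, by 0.55 ± 0.13. TIMP4 was at least 3.36-fold higher in granulocytes. ITGA5 was higher by 0.54 ± 0.08. TIMP2, which inhibits MMPs and also helps to activate MMP2, was higher by 0.95 ± 0.05, and by 1.23 ± 0.06 at its further probe. With quantile normalization the TIMP2 member probe turned to −0.15 (adjusted p = 0.0267), so its direction depends on the scaling. Of the genes matched by name only, ITGB3BP (1.13 ± 0.30) and COL4A3BP (0.73 ± 0.07) were higher in granulocytes.

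The members that did not pass were MMP1, interstitial collagenase, with a difference of 0.04 ± 0.16 (adjusted p = 0.821), and MMP13 (−0.06 ± 0.43, adjusted p = 0.897), which was near background. MMP1 was at −5.22, −5.36 and −5.26 in BES and between −5.74 and −4.93 in granulocytes, so its groups overlapped. COL4A1, COL8A1 and MMP16 had fitted differences of −1.48, −1.95 and −1.39 here, but the sign turned with normexp (0.31, 0.43 and 0.81). All 3 were not well above background in granulocytes.

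**Figure D2:**
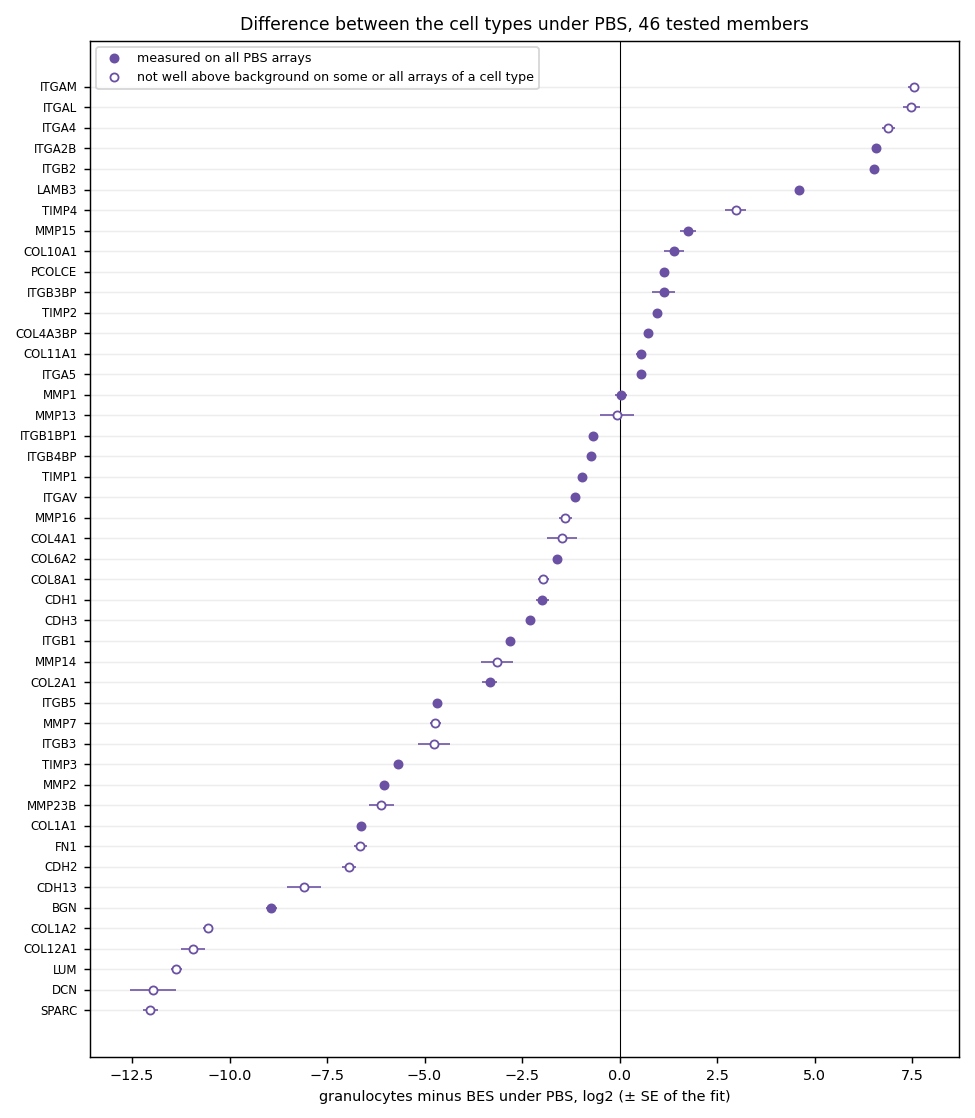
Difference between granulocytes and BES under PBS for the 46 tested members (log2, point and bar: estimate and SE of the limma fit, 4 granulocyte against 3 BES arrays). Filled points were well above background on all 7 arrays. Open points were not on some or all arrays of a cell type, so their fitted size rests partly on substitute values. SPARC and DCN, both open, lie at the low end and the leukocyte integrins at the high end.

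E-cadherin, CDH1, was measured in both cell types. It was at 3.46, 3.61 and 3.43 in BES under PBS and at 1.99, 1.45, 1.39 and 1.25 in granulocytes (−1.98 ± 0.17). Its neighbour CDH3, P-cadherin, was also lower in granulocytes (−2.30 ± 0.08). Among 6 epithelial markers with a probe, 5 were measured in BES: KRT8 (7.19), KRT19 (5.95), CLDN3 (5.22), MUC1 (−3.70) and CLDN4 (−5.30). EPCAM was not well above background there. In granulocytes under PBS, CLDN3 (4.16 ± 0.27), KRT19 (0.94 ± 0.31), CLDN4 (−2.70 ± 0.11) and EPCAM (−5.57 ± 0.14) were measured on all 4 arrays. KRT8 was measured on 3 of those arrays and MUC1 on 1. The part of epithelial cells in the CDH1 level was not tested.

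In the gene order of the bovine RefSeq annotation (assembly ARS-UCD2.0, used here only for which genes are neighbours), 5 pairs of members lie side by side: LUM with DCN, CDH3 with CDH1, COL4A4 with COL4A3, MMP3 with MMP1, and MMP20 with MMP7. LUM and DCN were measured on all 6 BES arrays, and LUM on none and DCN on 3 of the 8 granulocyte arrays. COL4A3 and COL4A4, the basement membrane chains of kidney and lung, were both not well above background anywhere. Members of the MMP cluster differed: MMP1 was measured on all arrays, MMP7 on all 6 BES arrays, MMP13 on 4 BES arrays and the tooth enamel protease MMP20 on 1. The member probe of MMP3, stromelysin, was never well above background, while another MMP3 probe was, on all 3 BES arrays with PBS (−6.78 ± 0.11, SD) and on 2 of 3 with IFNT.

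In BES, 1 of these genes passed the test for a change with IFNT, the basement membrane collagen chain COL4A1. Of the 42 members tested, 1 fell and 0 rose at an adjusted p of 0.05 (limma), which is 2.38% of them. Over all 11309 probes tested, 3.66% passed, 2.29% higher and 1.37% lower, so the share among the members is near the background. At an unadjusted p of 0.05 there were 7 members. The groups did not overlap in 12 of the 42, beside 33.5% of all probes. The median change was −0.01 over the members and −0.02 over all probes tested.

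COL4A1 encodes the ubiquitous alpha-1 chain of type IV collagen. It was at −5.12, −5.09 and −5.19 with PBS and at −5.42, −5.43 and −5.44 with IFNT, and every IFNT sample was below every PBS sample. The change was −0.30 ± 0.04 (1.23-fold lower, adjusted p = 0.0215). The call did not hold in 11 of 15 alternative settings. Among them were the array row as a covariate (−0.24, adjusted p = 0.211), normexp (−0.20, adjusted p = 0.0605), and leaving out any 1 sample other than PBS 3 (adjusted p = 0.0713 to 0.0963). Its probe carries the GG repeat shown above. COL8A1, a short-chain network collagen, changed by −0.18 ± 0.04 (adjusted p = 0.0872) with no overlap. Type I collagen gave −0.14 ± 0.06 for COL1A1 and 0.15 ± 0.06 for COL1A2 (adjusted p = 0.197 and 0.198). COL12A1, at 3.08, 3.20 and 3.26 with PBS and 3.20, 3.32 and 3.40 with IFNT, gave 0.13 ± 0.07. A probe described as similar to type III collagen gave 0.12 ± 0.05 (adjusted p = 0.208).

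SPARC in BES was at 6.80, 6.82 and 6.74 with PBS and 6.84, 6.79 and 6.84 with IFNT, a change of 0.04 ± 0.04. DCN gave 0.08 ± 0.05, LUM −0.01 ± 0.07 and BGN −0.10 ± 0.05, none past the threshold. FN1 gave −0.31 ± 0.13 (adjusted p = 0.207) at the member probe, while the further fibronectin probe was at 3.88, 3.94 and 3.91 with PBS and 3.91, 3.99 and 3.98 with IFNT (0.05 ± 0.05). LAMB3 gave 0.13 ± 0.07.

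MMP14 had the largest fitted change of the members in BES, and its probes disagreed. The member probe was at −4.61, −5.29 and −4.05 with PBS and at −3.37, −3.83 and −3.16 with IFNT, so the groups did not overlap. The change was 1.20 ± 0.33 (2.29-fold) and did not pass (adjusted p = 0.0997). It did pass with normexp (0.80, adjusted p = 0.0423), with the replicate number as a block (adjusted p = 0.0261) and without PBS 3 (adjusted p = 0.0452). The other MMP14 probe was at 2.35, 2.42 and 2.39 with PBS and 2.47, 2.19 and 2.51 with IFNT, a change of 0.00 ± 0.09 (adjusted p = 0.993). This other probe was chosen after its values were seen.

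The remaining enzymes and inhibitors in BES gave small values. MMP2 was at 2.12, 2.17 and 2.09 with PBS and 2.00, 2.06 and 2.01 with IFNT (−0.10 ± 0.04, adjusted p = 0.221), and its other probe gave 0.03 ± 0.09. TIMP2 gave 0.05 ± 0.06 and TIMP1, the soluble inhibitor of most MMPs, −0.01 ± 0.08. TIMP3 gave 0.19 ± 0.06 (adjusted p = 0.136) and −0.04 ± 0.05 at its other probe. Of the integrins, ITGB3 (0.20 ± 0.06) and ITGA5 (−0.24 ± 0.07) had an adjusted p of 0.118 each and groups that did not overlap. ITGAV, the alpha-v chain that pairs with beta-3 and beta-5, gave 0.12 ± 0.04 (adjusted p = 0.148), and ITGB5 −0.02 ± 0.05. CDH1 gave −0.09 ± 0.08. ITGB4BP, at 3.75, 3.77 and 3.62 with PBS and 3.52, 3.54 and 3.64 with IFNT, gave −0.15 ± 0.06 (adjusted p = 0.201).

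In granulocytes, IFNT was followed by changes in collagens, a collagen-processing protein, laminin beta-3 and integrin beta-5, while the leukocyte integrins gave values close to 0. Of the 32 members tested, 2 rose and 8 fell (31.2%). Over all 10379 probes tested, 44.6% passed, 17.2% higher and 27.4% lower, so the members' share is below that background and is no result about the group. Groups did not overlap in 10 of the 32, beside 43.6% of all probes. The median change was −0.04 over the members tested and −0.05 over all probes. The 2 rises and 8 falls are described by role.

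COL1A1 rose. The PBS samples were at −5.29, −5.63, −5.25 and −5.56, and the IFNT samples at −3.90, −4.04, −4.08 and −4.02. All 8 arrays were well above background and the groups lay more than 1 log2 unit apart. The rise was 1.42 ± 0.09 (2.67-fold, adjusted p = 5.0e-06). With normexp it was 0.63 and still passed. Its other probe, shown above, was not well above background with PBS (−6.54, −7.33, −7.95 and −6.74) and was on 3 of 4 arrays with IFNT (−5.92, −5.79, −4.89 and −5.55), which is at least 1.24-fold higher. That probe missed the detection rule of the granulocyte test. COL1A2, the partner chain of the type I trimer, was not well above background on any granulocyte array, and neither was the type III collagen probe.

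Markers of stromal and contractile cells were set beside the COL1A1 rise. Of 9 with a probe, 6 were tested in granulocytes, and 0 rose and 0 fell (1 had an unadjusted p under 0.05). Over all probes tested there, 44.6% passed. The summed level of all 9 was 5.62 to 5.84 with PBS and 5.56 to 5.69 with IFNT. VIM (4.67 ± 0.05, SD, n = 4, under PBS) and S100A4 (4.69 ± 0.15) carry most of that sum. It therefore cannot show whether the dimmer stromal markers moved. Of 7 endothelial or smooth muscle markers with a probe, 2 were tested and 1 rose, with a summed level of −3.57 to −3.43 with PBS and −3.31 to −2.90 with IFNT. The riser was CNN1, calponin of smooth muscle, which was not well above background with PBS and was on all 4 IFNT arrays, at least 1.69-fold higher (adjusted p = 4.3e-05). Its part in the COL1A1 rise was not tested. PDGFRA, NT5E and TCF21 were not well above background on any granulocyte array. DCN, an abundant stromal transcript, was well above background on 1 of 4 PBS and 2 of 4 IFNT arrays, and SPARC gave 0.30 ± 0.22 (adjusted p = 0.318).

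PCOLCE fell the most of the members tested. It encodes the enhancer of the proteinase that trims the C-terminal propeptide from fibrillar procollagens. The PBS samples were at 1.22, 1.11, 0.92 and 1.14, and the IFNT samples at −0.55, −0.66, −0.69 and −0.70. The groups were separated by more than 1 log2 unit, with a fall of 1.75 on the log2 scale (± 0.07, SE), or 3.36-fold (adjusted p = 2.5e-07). In BES the same probe was at −0.03, 0.09 and −0.16 with PBS and −0.35, −0.05 and −0.21 with IFNT. A probe described as similar to PCOLCE2, a related enhancer, was measured on all BES arrays and not well above background on any granulocyte array.

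The other collagen chains that fell were COL11A1, COL2A1 and COL10A1. COL11A1 was at −0.25, −0.24, −0.26 and −0.09 with PBS and −0.89, −0.74, −0.76 and −0.72 with IFNT (−0.56 ± 0.06, adjusted p = 9.5e-05). COL2A1, the fibrillar collagen of cartilage, was at −4.66, −3.99, −4.80 and −4.56 with PBS and −5.11, −5.03, −5.57 and −5.34 with IFNT (−0.76 ± 0.19, adjusted p = 0.00967). With normexp the COL2A1 change was −0.25 (adjusted p = 0.0335). Both probes carry the GG repeat. COL6A2, which carries it as well, was at −2.33 to −2.55 with PBS and −2.29 to −2.49 with IFNT and gave 0.05 ± 0.07, so probes with the repeat did not move alike. COL10A1 was at −4.19, −3.02, −4.26 and −4.08 with PBS and −4.56, −4.89, −4.60 and −4.68 with IFNT (−0.80 ± 0.26, adjusted p = 0.0327). PBS sample 2 stood apart in COL10A1, and without it the change was −0.51 (adjusted p = 0.00366). With normexp the COL10A1 change was −0.46 (adjusted p = 0.0193). This call did not hold in 6 of 16 alternative settings (adjusted p up to 0.08), and 2 further probes described as similar to type X collagen were not well above background on any array.

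LAMB3 fell. It was at 0.22, 0.35, 0.23 and 0.29 with PBS and −0.09, −0.26, −0.30 and −0.08 with IFNT, with no overlap (−0.45 ± 0.07, adjusted p = 6.3e-04). A probe described as similar to laminin beta-2 gave −0.03 ± 0.11, and one similar to laminin alpha-4 gave 0.09 ± 0.25. A laminin beta-1 probe was not well above background.

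ITGB5, which pairs with the alpha-v chain to bind vitronectin, fell. The PBS samples were at −1.60, −1.58, −1.57 and −1.67 and the IFNT samples at −2.32, −2.27, −2.51 and −2.26 (−0.73 ± 0.06, 1.66-fold lower, adjusted p = 2.9e-05). The PBS samples spanned 0.1 log2 units and lay wholly above the IFNT samples. ITGAV, its alpha chain, gave 0.05 ± 0.07. The other integrin members did not pass: ITGB2 gave −0.03 ± 0.05, ITGAM −0.04 ± 0.06, ITGAL −0.07 ± 0.11, ITGA4 −0.03 ± 0.07, ITGA2B −0.04 ± 0.05, ITGB1 −0.11 ± 0.08 and ITGA5 −0.16 ± 0.07 (adjusted p = 0.119 for ITGA5 and higher for the others). A probe described as similar to integrin alpha 6, a laminin receptor chain, fell by 0.26 on the log2 scale (adjusted p = 0.00242), and one similar to integrin beta-7 gave −0.02 ± 0.22.

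**Figure D3:**
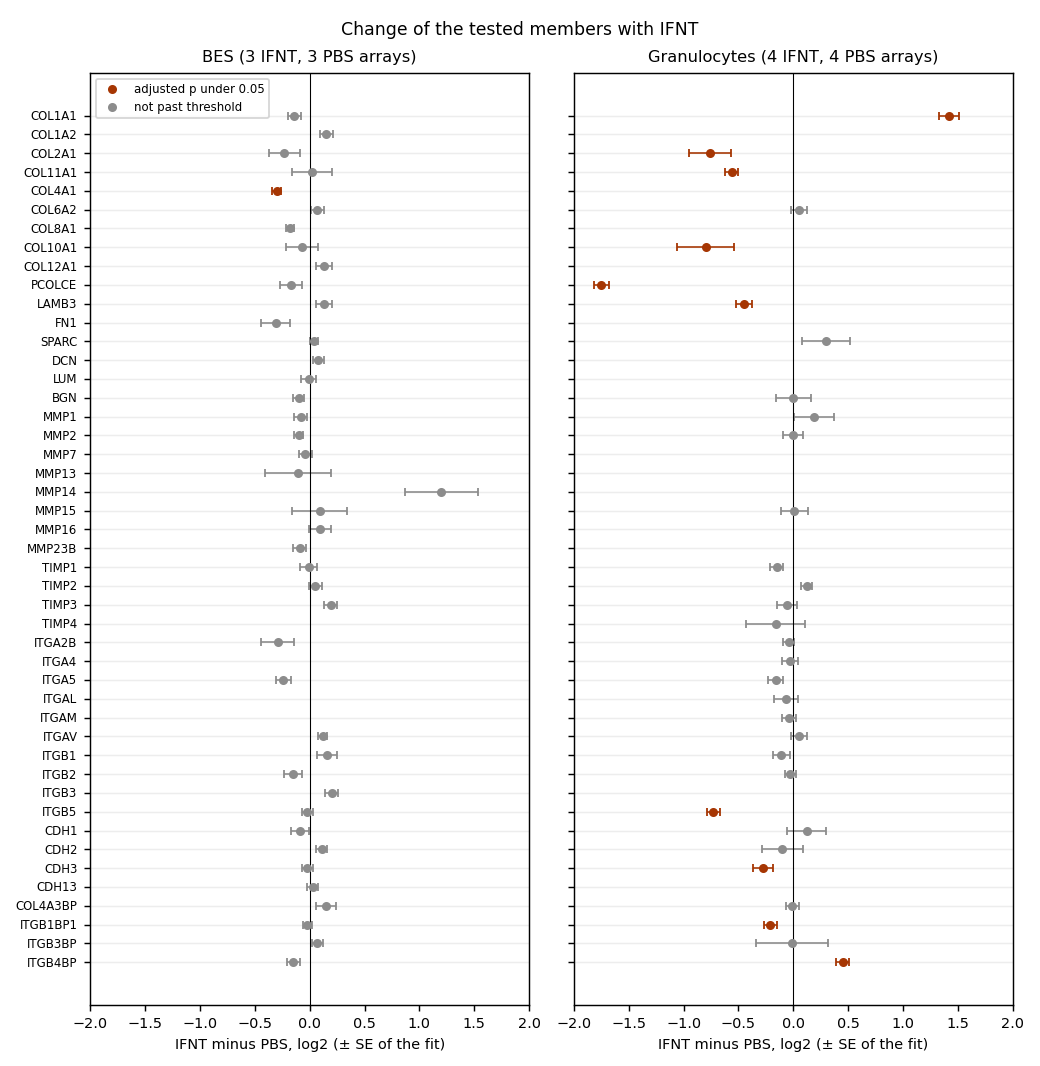
Change with IFNT of the members tested in BES (left) and granulocytes (right), as the log2 difference between IFNT and PBS samples with the SE of the limma fit. Coloured points passed an adjusted p of 0.05, and a gap means that the member was not tested in that cell type. COL1A1 (1.42) and PCOLCE (−1.75) stand farthest from 0 in granulocytes, where the leukocyte integrins ITGB2, ITGAM and ITGAL lie between −0.07 and −0.03.

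MMPs and TIMPs gave little in granulocytes. MMP2 gave 0.00 ± 0.09, MMP15 0.01 ± 0.12 and MMP1 0.19 ± 0.18, and the other MMP members were not tested. The MMP14 member probe was not well above background, but the other MMP14 probe was at −4.07, −4.05, −4.41 and −4.35 with PBS and −4.84, −4.88, −4.96 and −5.41 with IFNT (−0.81 ± 0.14, adjusted p = 0.00178). TIMP2 was at 5.98, 6.03, 5.98 and 5.90 with PBS and 6.12, 6.04, 6.11 and 6.10 with IFNT. The groups did not overlap and the change of 0.12 ± 0.05 did not pass (adjusted p = 0.0622), while its other probe did by a narrow margin (0.16 ± 0.05, adjusted p = 0.0374). TIMP1 gave −0.15 ± 0.06 (adjusted p = 0.0759), TIMP3 −0.06 ± 0.09 and TIMP4 −0.16 ± 0.27.

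Of the cadherins, CDH3 fell by 0.28 on the log2 scale (± 0.09, adjusted p = 0.0265). Its PBS samples, at −4.66, −4.77, −4.95 and −4.67, overlapped its IFNT samples, at −5.19, −5.08, −5.01 and −4.89, and the call did not hold in 8 of 16 alternative settings (with normexp −0.06, adjusted p = 0.53). CDH1 gave 0.12 ± 0.18 and CDH2 −0.10 ± 0.19. Of the small proteoglycans, BGN was tested and gave 0.00 ± 0.16. Of the genes matched by name only, ITGB4BP rose, from 2.87, 2.99, 2.96 and 3.07 to 3.33, 3.54, 3.42 and 3.40 (0.45 ± 0.06, adjusted p = 5.0e-04), and ITGB1BP1 fell, from 1.38 to 1.43 with PBS to 1.05 to 1.28 with IFNT (−0.21 ± 0.06, adjusted p = 0.0176).

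**Figure D4:**
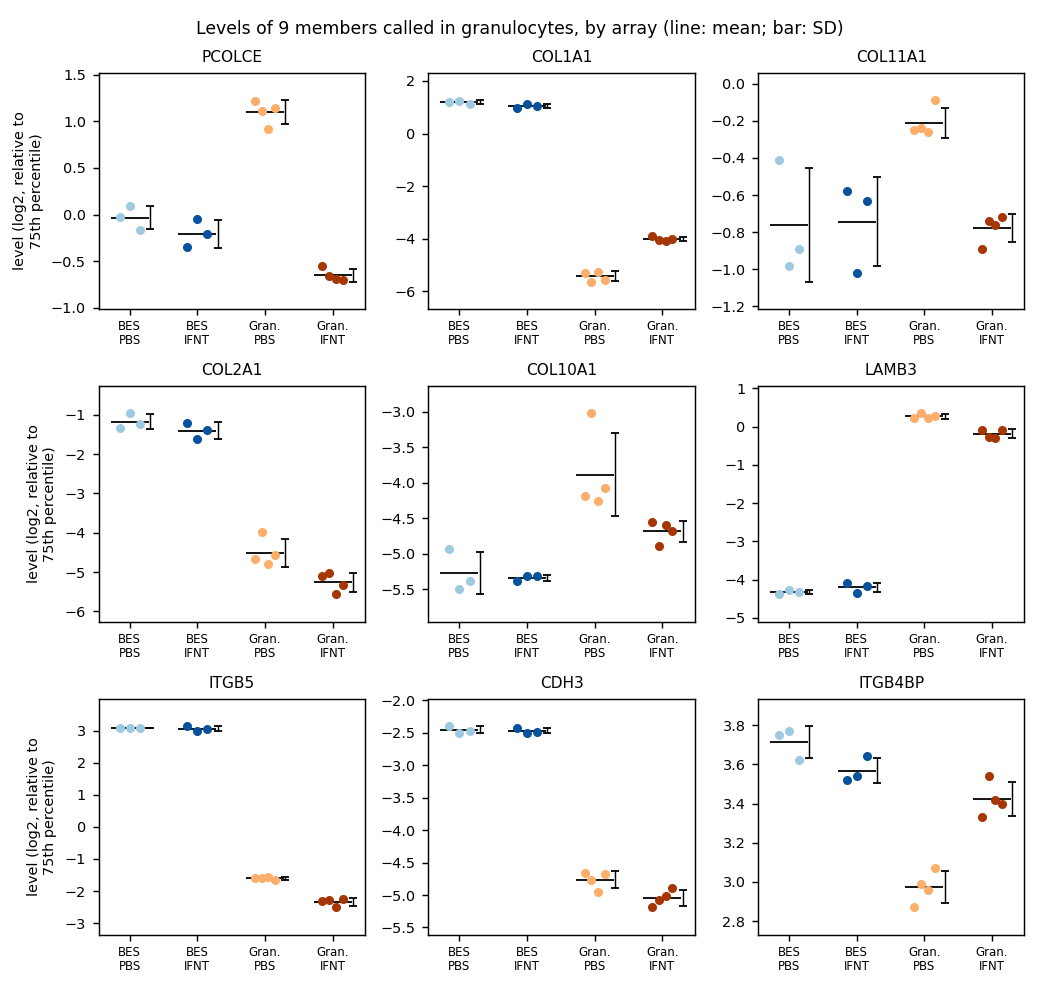
Levels of 9 of the 10 members called in granulocytes, by array (log2 processed signal minus the 75th percentile of the array). Points are arrays, lines group means and bars SD (n = 3 for BES, n = 4 for granulocytes). In granulocytes all members shown except CDH3 had no overlap between PBS and IFNT samples, and 43.6% of all probes tested had none either. COL10A1 has 1 high PBS sample.

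Markers of other cell types moved with IFNT in the same granulocyte samples, where 44.6% of all probes passed. Both eosinophil markers with a probe fell, CCR3 by 1.34 and ALOX15 by 0.21 on the log2 scale, and their summed level was 3.78 to 3.86 with PBS and 3.41 to 3.60 with IFNT. Of 6 monocyte or macrophage markers, 3 rose and 2 fell (summed level 4.82 to 4.95 and 4.73 to 4.78), of 8 T or NK markers 1 rose (1.85 to 1.93 and 1.79 to 1.93), and of 3 B cell markers 1 rose (1.22 to 1.30 and 1.33 to 1.39). Of 13 granulocyte markers, 4 rose and 2 fell (9.67 to 10 and 9.70 to 9.84). Of 6 epithelial markers 2 rose and 0 fell (4.07 to 4.64 and 4.23 to 4.49): MUC1, well above background on 1 PBS and 4 IFNT arrays, went from −6.47 ± 0.35 to −3.63 ± 0.09 (SD, n = 4 each), and EPCAM rose by 0.40 ± 0.08. Of the 2 platelet or erythroid markers tested, EPB42 fell by 0.96 on the log2 scale (1.91 to 2.11 and 1.82 to 1.94). In a mixed sample, fewer cells of a type and less RNA per cell cannot be told apart, and the part of these cell types in the members' changes was not tested.

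The response to IFNT was then compared between the cell types in 1 model. Of the 46 members tested, 6 differed (13%), beside 26.5% of all 12046 probes, 11.7% with a higher and 14.8% with a lower response in granulocytes. COL1A1 (1.56 ± 0.13, adjusted p = 2.5e-06) and ITGB4BP (0.60 ± 0.09, adjusted p = 4.7e-04) had the higher response in granulocytes. PCOLCE (−1.58 ± 0.13, adjusted p = 2.2e-06), ITGB5 (−0.71 ± 0.09, adjusted p = 7.1e-05) and LAMB3 (−0.58 ± 0.10, adjusted p = 0.0012) had the lower one. These 5 calls held in all 21 alternative settings tried for that comparison, though COL1A1 gave 0.77 with normexp (adjusted p = 0.00112). COL11A1 (−0.58 ± 0.19, adjusted p = 0.0405) did not hold in 14 of the 21, where its adjusted p reached 0.107, and its BES samples were widely spread (−0.98 to −0.41 with PBS).

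The other MMP14 probe gave a response difference of −0.81 ± 0.20 (adjusted p = 0.00942). The MMP14 member probe gave −1.13 with an adjusted p of 0.2, with values at background in granulocytes. It passed in 2 of 21 alternative settings, with normexp (−0.80, adjusted p = 0.0202) and with the replicate number as a block (adjusted p = 0.0142). No response difference is given for the other COL1A1 probe, which was at background on all granulocyte PBS arrays. This comparison spans both slides, and its granulocyte side carries the array row with the treatment.

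**Figure D5:**
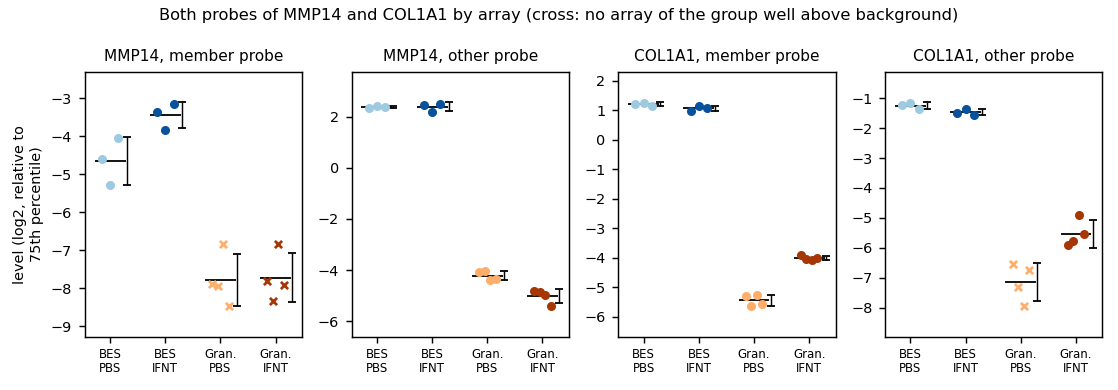
Levels by array of both probes annotated to MMP14 and both to COL1A1 (log2 processed signal minus the 75th percentile of the array; line: group mean, bar: SD, crosses: no array of the group well above background). The MMP14 member probe was higher with IFNT in every BES sample without passing the test, the other MMP14 probe was lower with IFNT in granulocytes, and both COL1A1 probes were higher with IFNT in granulocytes.

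Of the 60 members, 14 have at least 1 further probe annotated to the same product, 15 such probes in all, and 10 more probes read related products. They stand outside the symbol rule and were chosen after values were seen. Versican, a large proteoglycan that binds hyaluronan, was at −5.16, −5.16 and −5.43 in BES and −0.70, −0.85, −0.55 and −1.08 in granulocytes under PBS (4.46 ± 0.16 higher in granulocytes), and its changes with IFNT were −0.32 ± 0.17 in BES and 0.17 ± 0.13 in granulocytes. The type III collagen probe was at least 4090-fold higher in BES. Type VI collagen alpha-3 was at 1.95, 1.85 and 1.95 in BES and lower in granulocytes (−5.17 ± 0.06). CDH6, whose member probe was at background everywhere, had another probe well above background on all 6 BES and on 5 of 8 granulocyte arrays. Further probes of MMP1, MMP13 and ITGA5 were not well above background on any array, although the member probes of MMP1 and ITGA5 were on all 14.

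Partners of these genes in the same pathways were taken from fixed lists, and the counts cover only the genes with a named probe that passed the detection rule. For every list below, the background over all probes tested was 3.66% passing in BES (2.29% higher, 1.37% lower). In granulocytes it was 44.6% (17.2% higher, 27.4% lower). At an unadjusted p under 0.05 there were 2874 of 11309 probes in BES. No count below is a result about its list. For collagen maturation (24 listed), 11 were tested in BES and 0 passed (4 at an unadjusted p under 0.05). Their median was −0.13, beside −0.02 over all probes tested. The lysyl oxidases, which cross-link collagen, gave 0.21 ± 0.06 for LOX, −0.20 ± 0.06 for LOXL3, −0.37 ± 0.12 for LOXL4 and −0.14 ± 0.06 for LOXL1. In granulocytes 7 were tested, 1 rose and 1 fell. LOXL1 was not well above background with PBS and was on all 4 IFNT arrays (−5.29, −4.64, −4.75 and −4.88), at least 1.94-fold higher (adjusted p = 3.1e-06). P4HB, a subunit of prolyl hydroxylase, fell from 3.58 ± 0.01 to 3.37 ± 0.04 (adjusted p = 0.00259), while PPIB (−0.15 ± 0.08) and PLOD1 (0.07 ± 0.04) did not pass.

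Of other matrix glycoproteins (35 listed), 24 were tested in BES and 0 passed (5 at an unadjusted p under 0.05), among them TNC (−0.21 ± 0.07), VTN (−0.28 ± 0.09), FBN1 (0.24 ± 0.08) and FMOD (−0.16 ± 0.06). In granulocytes 9 were tested, 3 rose and 2 fell. NID1, the nidogen that links laminin to type IV collagen, fell from −3.26 ± 0.13 to −3.99 ± 0.04 (SD, n = 4 each, adjusted p = 4.2e-05), and thrombospondin THBS1 fell from 5.28 ± 0.09 to 4.43 ± 0.15 (adjusted p = 5.9e-05). Osteopontin SPP1 rose by 0.61 ± 0.10 and elastin ELN by 0.23 ± 0.06 (log2). Osteopontin is a ligand of alpha-v integrins. In BES it gave 0.03 ± 0.04.

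Of the integrin adaptors (22 listed), 5 were tested in each cell type. In BES 1 fell, the integrin-linked kinase ILK, from 3.06 ± 0.06 to 2.71 ± 0.01 (adjusted p = 0.0157), and BCAR1 (−0.16 ± 0.07), RAP1B (−0.11 ± 0.05) and RAP1A (−0.08 ± 0.07) did not pass. In granulocytes 3 fell: BCAR1, the docking protein p130Cas (−0.67 ± 0.09), ILK (−0.18 ± 0.04) and ITGB1BP1, which is also a member. RAP1A, a GTPase that switches integrins on, gave −0.21 ± 0.08 (adjusted p = 0.0629).

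Of integrin ligands and partners on other cells (18 listed), 13 were tested in BES and 0 passed (4 at an unadjusted p under 0.05). VCAM1 gave 0.51 ± 0.14 (adjusted p = 0.0977), F11R −0.30 ± 0.06 (adjusted p = 0.0523), SELE −0.25 ± 0.09 and CD81 −0.10 ± 0.04. In granulocytes 11 were tested, 4 rose and 3 fell. ICAM1, the ligand of LFA-1 and Mac-1, rose from 0.13 ± 0.18 to 1.06 ± 0.14 (adjusted p = 1.3e-04), CD47 rose by 0.25 ± 0.05, and CD81 (−0.32 ± 0.04) and MADCAM1 (−0.35 ± 0.07) fell. So in granulocytes ICAM1 passed the test while its receptor chains ITGAL, ITGAM and ITGB2 did not, and the difference between those changes was not tested.

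Of 2 catenins with a probe (6 listed), neither passed in BES, where beta-catenin CTNNB1 gave 0.33 ± 0.07 (adjusted p = 0.0657) and plakoglobin JUP −0.14 ± 0.06. JUP fell in granulocytes (−0.27 ± 0.05, adjusted p = 0.00346) and CTNNB1 gave −0.10 ± 0.10. Of other proteases and inhibitors (24 listed), 17 were tested in BES and 0 passed (5 at an unadjusted p under 0.05), ADAMTS4 (−0.25 ± 0.05), BSG, the MMP inducer basigin (−0.29 ± 0.07), PLAT (−0.14 ± 0.04) and ADAM12 (0.24 ± 0.07) having the smallest p. In granulocytes 13 were tested, 0 rose and 6 fell, beside 17.2% higher and 27.4% lower over all probes tested. Among them, urokinase PLAU fell from 7.62 ± 0.05 to 7.08 ± 0.07 (SD, n = 4 each, adjusted p = 5.0e-05) and its receptor PLAUR from 6.27 ± 0.07 to 5.32 ± 0.11 (adjusted p = 6.9e-06). The inhibitor TFPI2 fell by 0.66 on the log2 scale. Of 5 TGF-beta signalling genes tested (16 listed), 0 passed in BES, with TGFB1 at −0.09 ± 0.06 and SMAD4 at 0.06 ± 0.05. In granulocytes the receptor TGFBR1 rose (0.75 ± 0.12, adjusted p = 0.00128), SMAD4 (−0.24 ± 0.04) and LTBP2 (−0.68 ± 0.23, adjusted p = 0.0375) fell, and SMAD2 gave −0.08 ± 0.05. LTBP2 was near background, well above it on 4 PBS and 2 IFNT arrays.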

How the data were processed

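Cy3-labelled RNA of each sample was hybridised to 1 array of 1 Agilent design. The deposited scanner files give fluorescence intensity per spot, processed with Agilent Feature Extraction 9.5 per the submitters' processing notes; that software had already corrected the processed signal for background and put surrogate values in place of spots at background. The deposited value table holds log2 values: each column equals log2 of the same array's processed signal less a constant near the 75th percentile, and probes were not centred between arrays.

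Here log2(processed signal) minus the 75th percentile of the 15208 non-control probes was used; 536 control spots and spots flagged as outliers were left out. Probes well above background on at least 3 BES or 4 granulocyte arrays were tested, and for comparisons between cell types on either condition. limma 3.58.1 (R 4.3.3; lmFit, eBayes, two-sided) was fitted over all probes tested, with Benjamini-Hochberg adjustment over all of them and a threshold of 0.05. The IFNT effect in BES and in granulocytes came from a fit of its own for each, and the other comparisons used all 14 arrays. The number of arrays limits the precision. The script was tested on simulated data.

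The symbol was the file's gene name (its first entry where several are joined), or the symbol in the description where that name was an accession. Of the members, 35 matched a RefSeq symbol by accession (ARS-UCD2.0), and 10 are named through a description as similar to a gene; neighbouring genes were found by RefSeq symbol or synonym (60 of 60 placed). Members, lists and tests were chosen with earlier results of these data known. The naming rule took every member past the threshold in an IFNT comparison, the member with the highest level per role and cell type, the 15 largest cell-type differences and 10 largest response differences each way, members whose probes disagree, and up to 4 genes per list by unadjusted p. Other members are named because their place in a role calls for them. Alternatives were normexp (offset 50), quantile normalization, no filter, a filter on all arrays, an intensity trend with robust prior, the authors' table, the replicate number as a block, array row, all 14 arrays in 1 fit, and each sample left out.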

Additional observations from a re-analysis of the deposited data

Results flagged for a closer look

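In the level of COL11A1, granulocyte PBS sample 4 lay at −0.09, apart from the other PBS samples at −0.26 to −0.24. In the level of COL10A1, granulocyte PBS sample 2 lay at −3.02, apart from the others at −4.26 to −4.08. Chance alone sets a sample apart in about 1 in 20 groups of this size under the test used (Dixon's, 95%).

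The IFNT response differed between granulocytes and BES, by the test of the difference itself in limma, in COL1A1 (1.56), ITGB4BP (0.60), PCOLCE (−1.58), ITGB5 (−0.71), LAMB3 (−0.58) and COL11A1 (−0.58, adjusted p = 0.0405). The sign is that of the granulocyte response minus the BES response on the log2 scale.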

How the results depend on the processing

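The count of members called in BES, 1 as reported, was 0 with no filter on dim probes, with the intensity trend and robust prior, when array row was added as a covariate, and with all 14 arrays in 1 fit, and 0 to 2 with a sample left out. It was 1 with the other settings, but with normexp the member called was MMP14, rising. In granulocytes the count of 10 ranged from 8 to 11, the response difference count of 6 from 5 to 7, and the cell-type count of 44 from 43 to 55. The calls lost were COL4A1 in BES, CDH3 and COL10A1 in granulocytes, and COL11A1 in the response difference; the cause was not tested. No call in an IFNT comparison changed sign. Of the members not past the threshold, 11 of 41 in BES, 8 of 22 in granulocytes and 11 of 40 for the response difference crossed 0 in some setting, such as MMP13 (−0.39 to 0.43) and MMP15 (−0.11 to 0.39) in BES, ITGB5 in BES (0.02 with quantile normalization, −0.06 to 0.01 with a sample left out), TIMP2 in BES (−0.00 to 0.09 with a sample left out), BGN in granulocytes (−0.05 with quantile normalization, −0.10 to 0.16 with a sample left out) and MMP2 in granulocytes (−0.04 with quantile normalization, −0.04 to 0.06 with a sample left out). Between cell types, called differences changed sign in TIMP2 (0.95, but −0.15 with quantile normalization) and, with normexp, in COL4A1 (−1.48 to 0.31), COL8A1 (−1.95 to 0.43) and MMP16 (−1.39 to 0.81).

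Over all probes, 414 were called in BES and 149 with array row, 189 with no filter, 318 with the replicate block, 584 with the filter on all arrays, 616 with normexp, 1011 with the trend and robust prior, and 199 to 625 with a sample left out. In BES the split was 259 higher and 155 lower, but 294 and 322 with normexp and 432 and 579 with the trend. Between cell types it was 5629 higher and 5423 lower, 6745 and 4530 with normexp, and 8191 and 5413 with no filter.

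Whether same-numbered samples belong together is not labelled, and their deviations did not settle it. These correlated at −0.01 to 0.06 in BES and −0.12 to 0.20 in granulocytes. BES sample 1 and granulocyte samples 1 and 2 (0.14 and 0.18, against at most 0.06 with other numbers) correlated best with their own number. The remaining samples did not. With the replicate number as a block, members called were 1 in BES (MMP14 rising, in place of COL4A1), 9 in granulocytes and 7 for the response difference. The mean of all probes of a symbol was not run, since every symbol under the rule has 1 probe. Members close to background, such as MMP13, MMP14, MMP15 and MMP16, are limited by signal over background.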
